A study of Mus musculus with 2 samples.

Results

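IgA lambda plasma cells are antibody-secreting cells of the gut wall whose heavy chain is IgA and whose light chain is lambda. They were chosen by measured values, the counts of unique molecular identifiers (UMIs, each standing for 1 captured RNA molecule) per gene in each cell of 2 single-cell libraries. Cells below 1000 UMIs or 500 detected genes, or with over 10% of their UMIs on mitochondrial genes, were first set aside. A member then needed at least 20% of its UMIs on constant region genes and Jchain, at least 1 Xbp1 UMI, no Cd3d, Cd3e or Cd3g UMI and Igha as the highest of 6 heavy chain constant genes. It also needed more UMIs of Iglc1, Iglc2 and Iglc3 together than of Igkc, and it could not carry both Mki67 and Top2a, genes of dividing cells. This left 504 of 25120 kept cells, 279 of 12594 in the control library and 225 of 12526 in the other. IgA kappa plasma cells by the same rule, with Igkc in the lead, numbered 6807 and 5639 and serve as the comparison.

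The cells came from the small intestine lamina propria, the connective tissue under the gut epithelium, of female littermates aged 10 to 12 weeks. All mice were fasted for 16 h, then given olive oil by gavage 2 h before the cells were taken. Live CD45+ cells negative for EPCAM, Ter119 and CD31 were sorted, 100000 from each of 3 mice per genotype, pooled and loaded as 1 library per genotype (10x Genomics, 3′ gene expression). The control genotype was Aster-A F/F (F/F below), in which both copies of the gene for Aster-A are flanked by sites for Cre recombinase. The other was CD4-Cre; Aster-A F/F (CD4-Cre below), which adds Cre under the Cd4 promoter, a promoter known for activity in T cells. Both groups therefore carry the floxed alleles. With 1 pool per genotype no test between genotypes was possible, and pool, sort and library cannot be told apart from genotype. Gramd1a, which encodes Aster-A, was at 18.6 and 19.9 CPM (UMIs scaled to a common total of non-immunoglobulin UMIs, as counts per 1000000) in F/F and CD4-Cre lambda cells, from 40 and 34 UMIs. A 3′ tag need not lie in a deleted part, so this checks nothing about the deletion.

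A plasma cell makes its antibody from a heavy chain and a light chain, and it uses a kappa or a lambda light chain after a B cell precursor has joined variable and joining segments at that locus. In the laboratory mouse the lambda locus is small: a few variable genes stand before pairs of joining segments and constant genes, and a rearrangement can only join a variable gene to a constant gene that lies downstream of it. IgA made in the gut is joined by the J chain (Jchain) into dimers, which epithelial cells carry into the lumen. The antibody chains are folded in the endoplasmic reticulum (ER), where chaperones such as BiP (Hspa5) hold them, and Xbp1 drives the machinery that this needs.

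The lambda genes that divide the members are printed here because their likeness decides which of them counts of 3′ tags can tell apart. All lie on the minus strand of chromosome 16 (GRCm38), and transcripts are those of GENCODE M21. In the order of transcription Iglv2 (19260401-19260859) and Iglv3 (19241207-19241690) come first, then Iglc2 (19198396-19200351), then Iglv1 (19085017-19085500), Iglc3 (19065230-19065681) and Iglc1 (19061618-19062071). The first 300 coding bases of the constant genes follow, with bases of Iglc3 and Iglc1 that differ from Iglc2 in capitals.
Iglc2: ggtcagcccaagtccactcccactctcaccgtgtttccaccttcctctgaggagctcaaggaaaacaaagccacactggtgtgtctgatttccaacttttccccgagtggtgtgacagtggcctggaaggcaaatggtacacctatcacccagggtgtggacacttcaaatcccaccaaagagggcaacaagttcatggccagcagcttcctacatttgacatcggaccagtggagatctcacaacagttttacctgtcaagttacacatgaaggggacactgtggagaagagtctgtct
Iglc3: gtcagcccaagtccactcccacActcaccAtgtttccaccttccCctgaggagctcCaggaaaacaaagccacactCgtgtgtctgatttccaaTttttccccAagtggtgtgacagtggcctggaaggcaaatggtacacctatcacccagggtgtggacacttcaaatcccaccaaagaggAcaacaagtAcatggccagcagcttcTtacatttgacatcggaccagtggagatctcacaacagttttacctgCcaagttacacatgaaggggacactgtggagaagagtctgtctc
Iglc1: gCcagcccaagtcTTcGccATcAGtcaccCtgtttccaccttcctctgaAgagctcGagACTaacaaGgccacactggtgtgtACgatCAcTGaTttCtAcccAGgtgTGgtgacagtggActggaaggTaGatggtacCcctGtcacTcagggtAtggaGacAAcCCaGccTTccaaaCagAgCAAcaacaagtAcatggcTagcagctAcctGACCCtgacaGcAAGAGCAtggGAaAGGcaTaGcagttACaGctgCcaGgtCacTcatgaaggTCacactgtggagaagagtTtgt
Iglc2 and Iglc3 were identical at 303 of 314 aligned coding bases (96.5%), with the longest identical run 79 bases. Iglc2 and Iglc1 were identical at 230 of 314 (73.2%), with a longest run of 19. Only coding bases were compared, while 3′ tags can also lie in the untranslated ends, which were not. How reads in the identical runs of Iglc2 and Iglc3 were counted was not tested, so the levels of both are uncertain, also beside Iglc1. The variable genes Iglv1 and Iglv2 are also alike, here shown by their first 300 coding bases with those of Iglv2 that differ from Iglv1 in capitals.
Iglv1: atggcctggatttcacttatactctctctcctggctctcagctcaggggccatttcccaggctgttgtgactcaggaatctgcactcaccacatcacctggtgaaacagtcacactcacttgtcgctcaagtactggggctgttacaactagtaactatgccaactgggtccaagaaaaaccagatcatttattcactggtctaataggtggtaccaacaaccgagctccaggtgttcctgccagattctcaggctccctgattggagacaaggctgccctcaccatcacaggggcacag
Iglv2: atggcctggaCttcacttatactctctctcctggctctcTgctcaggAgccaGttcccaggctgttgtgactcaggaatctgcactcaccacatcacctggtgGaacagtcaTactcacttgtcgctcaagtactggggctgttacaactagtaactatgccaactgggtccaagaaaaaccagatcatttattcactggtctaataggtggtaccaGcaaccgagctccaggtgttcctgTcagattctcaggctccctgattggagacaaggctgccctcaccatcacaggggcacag
These were identical at 340 of 351 coding bases (96.9%). Iglv3 was identical to Iglv1 at 200 of 342 aligned bases (58.5%).

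The 2 libraries held 222838658 and 200580083 UMIs over all barcodes. Members had a median of 19809 UMIs in F/F and 19565 in CD4-Cre, of which 7006 and 7105 lay outside immunoglobulin genes. No cell barcode was shared by members of the 2 libraries, and 47 were shared among all kept cells. The label was checked on markers that the rule did not use: summed over Sdc1, Tnfrsf17, Prdm1, Irf4 and Mzb1, members had 8873 and 9950.5 CPM in F/F and CD4-Cre, kappa cells had 7763 and 8443, and free RNA had 3342 and 3544. Mzb1 alone held 7527 and 8712 CPM of the sums in members. The 4 dendritic cell genes summed to 53.5 and 49.8 CPM in members and 37.4 and 44.2 in free RNA. Among markers of other cells, summed CPM was 20.02 and 8.20 for 5 B cell genes (Pax5, Cd22 and Fcer2a at 0), 7.91 and 12.3 for 5 T cell genes (Cd3d, Cd3e and Cd3g set to 0 by the rule), 60.1 and 32.2 for 5 macrophage genes and 0 and 0.586 for 2 neutrophil genes. The 3 epithelial markers summed to 244 and 253 CPM, with Fabp2 and Apoa4 at 0, so that Epcam, whose protein the sort selected against, held all of it. RNA of pancreatic acinar cells, measured on 10 genes, came to 882 CPM in F/F members and 1.76 in CD4-Cre members, against 1036 and 2.53 in kappa cells and 2128 and 326 among barcodes of 10 to 100 UMIs, which hold free RNA. RNA of 3 gastric genes went the other way, 25.6 and 200.4 CPM in members and 146 and 960 in free RNA.

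Lambda cells made up a small and similar share of IgA plasma cells in both libraries. They were 279 of 7086 in F/F (3.94%, exact Clopper-Pearson 95% interval 3.50 to 4.42) and 225 of 5864 in CD4-Cre (3.84%, 3.36 to 4.36). All intervals cover counting error only. Dividing IgA plasma cells were lambda in 21 of 793 cells in F/F (2.65%, 1.65 to 4.02) and in 30 of 628 in CD4-Cre (4.78%, 3.25 to 6.75). Among plasma cells led by a heavy chain other than IgA, 3 of 82 and 2 of 86 were lambda. The intervals of these shares overlapped that of the non-dividing IgA cells within each library.

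Light chain RNA was the largest item in these cells. The light chain levels chose the members and are given as a description, with no test. The sum of Iglc1, Iglc2 and Iglc3 ran from 287 to 27245 UMIs per cell in F/F, with a median of 8981, and from 665 to 22041 in CD4-Cre, with a median of 9253. In kappa cells the median of Igkc was 6028 and 6573 UMIs. Igha, the IgA heavy chain constant gene, had a median of 2078 and 1927 UMIs in lambda cells and 1942 and 1870 in kappa cells. Lambda cells thus held a median of 4.13 and 4.56 light chain UMIs per Igha UMI, against 3.09 and 3.47 in kappa cells, although 3′ tags of different genes need not be captured alike. Jchain had a median of 1073 and 990 UMIs in lambda cells and 892 and 941 in kappa cells. Nearly all cells carried some of the other light chain. The median of Igkc in lambda cells was 140 and 146 UMIs, and the median of the lambda sum in kappa cells was 57 and 47.

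A minority of members held both light chains at high level. Igkc made up over 20% of light chain UMIs in 39 F/F and 20 CD4-Cre lambda cells, which form the separate cloud near the diagonal in the plot of light chain UMIs. These cells had a median of 35847 and 34635.5 UMIs, against 19369 and 19565 in cells with at least 95% lambda, and a median of 46 and 47 Igkv UMIs against 2 and 2. No doublet caller was applied, and the part of cell pairs in these values was not tested. With 1 light chain required to be at least 4 times the other, the lambda share was 3.42% in F/F and 3.52% in CD4-Cre. At the limit of the rule, the nearest cell inside was 50.1% lambda, with 5423 lambda and 5402 Igkc UMIs, and the nearest outside was 49.3% lambda, with 3283 and 3373. The lowest share of antibody UMIs inside was 20.5%, and the highest among the 3 cells that failed on that limit alone was 17.8%.

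**Figure D1:**
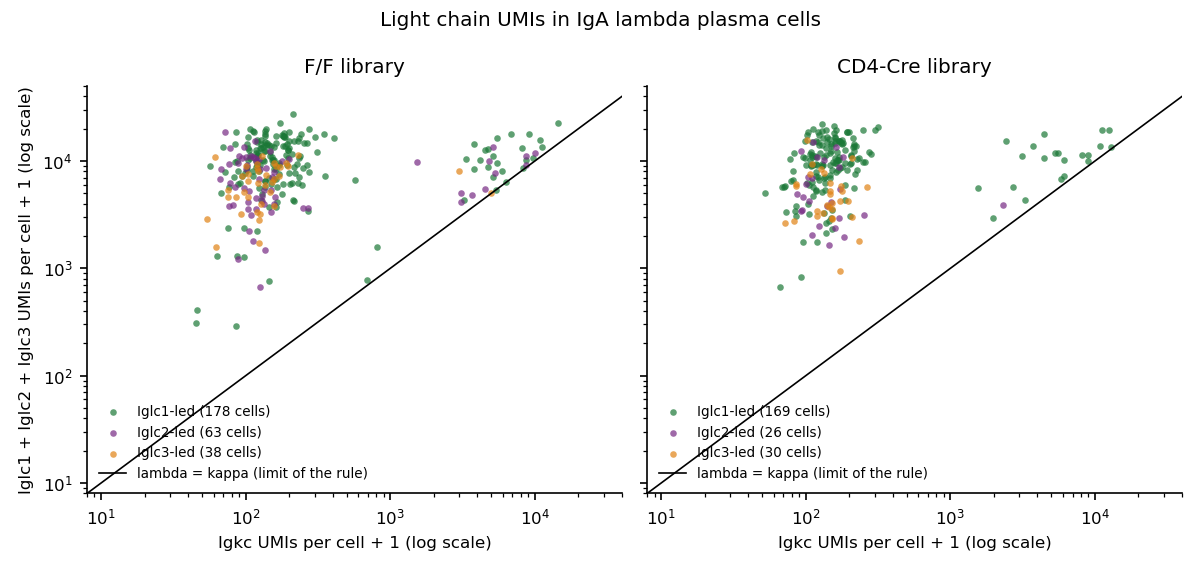
Igkc UMIs per cell (x axis, plus 1, log scale) against the sum of Iglc1, Iglc2 and Iglc3 UMIs (y axis, plus 1, log scale), 1 point per IgA lambda plasma cell, coloured by the constant gene with most UMIs, with the limit of the rule as a line. Most cells stand near 140 Igkc UMIs, and a second cloud of cells with high levels of both light chains lies just above the line.

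Iglc1 was the leading constant gene in most lambda cells of both libraries. It led in 178 of 279 F/F cells (63.8%, 57.9 to 69.4) and in 169 of 225 CD4-Cre cells (75.1%, 68.9 to 80.6). Iglc2 led in 63 F/F cells (22.6%, 17.8 to 27.9) and in 26 CD4-Cre cells (11.6%, 7.69 to 16.5). Iglc3 led in 38 (13.6%) and 30 (13.3%) cells. Of the 63 F/F cells led by Iglc2, 26 also shared the heavy chain gene Ighv2-9-1, a combination absent from the CD4-Cre cells. Without it Iglc2 led in 37 of 253 F/F cells (14.6%), beside 26 of 225 in CD4-Cre. Cells that share such a combination are not replicates. The leading gene took a median of 98.5% to 99.8% of the 3 genes' UMIs, so that nearly all lambda UMIs of a typical cell lay on 1 constant gene.

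The level of light chain RNA differed with the constant gene. Iglc1-led cells had a median of 10324.5 lambda UMIs in F/F and 10452 in CD4-Cre. Iglc2-led cells had 6868 and 4452.5, and Iglc3-led cells 6494 and 4242.5. Ranges overlapped widely, from 287 to 27245 for Iglc1-led and from 662 to 18753 for Iglc2-led cells in F/F. Per Igha UMI the medians were 4.58 and 4.82 in Iglc1-led, 3.43 and 4.05 in Iglc2-led and 2.90 and 2.59 in Iglc3-led cells. The order of the medians was thus Iglc1, Iglc2, Iglc3 in both libraries, and the medians of Iglc2 and Iglc3 lay close together by lambda UMIs. Single combinations weigh on these medians. Of 63 Iglc2-led F/F cells, 26 shared Ighv2-9-1 (median 7473 lambda UMIs), and of 30 Iglc3-led CD4-Cre cells, 18 shared Ighv5-17 (3635.5). Cells with Igkc over 20% of light chain UMIs numbered 27 and 19 among Iglc1-led, 10 and 1 among Iglc2-led and 2 and 0 among Iglc3-led cells. UMIs outside immunoglobulin genes had medians of 6577 and 6614 in Iglc1-led, 7421 and 8382 in Iglc2-led and 7468 and 7565.5 in Iglc3-led cells, so that Iglc1-led cells had the lowest median in both libraries. Differences in capture between the 3 genes' tags were not tested, nor was the counting of reads in the runs that Iglc2 and Iglc3 share.

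The assigned variable gene differed by constant gene and, with 4 exceptions in CD4-Cre, lay in the part of the locus next to it. A variable gene was assigned where its leader had at least 5 UMIs and 80% of Iglv UMIs. Kappa cells had a median of 31 Iglv1 UMIs in F/F and 23 in CD4-Cre, so the limit of 5 lies below their Iglv1 level. Iglv1, which lies upstream of Iglc3 and Iglc1, was assigned in 176 of 178 Iglc1-led cells and 36 of 38 Iglc3-led cells in F/F, and in 165 of 169 and 30 of 30 in CD4-Cre. Among Iglc2-led cells Iglv1 was assigned in 0 of 63 in F/F and 2 of 26 in CD4-Cre. Iglv3, which lies upstream of Iglc2, was assigned in 27 of these 63 cells in F/F and 2 of 26 in CD4-Cre, and in no cell led by another constant gene. Iglv2 was assigned in 4 and 2 Iglc2-led cells, and in 2 Iglc1-led cells of CD4-Cre. A further 32 and 20 Iglc2-led cells had no assignment. These had a median of 35 and 30.5 Iglv1 UMIs, close to the median of 31 and 23 in kappa cells, beside 23 and 11.5 of Iglv2. In 18 of the 32 and 11 of the 20, Iglv2 had at least 5 UMIs and more than Iglv3, and in 14 and 9 Iglv3 did over Iglv2. Iglv1 and Iglv2 are 96.9% identical, yet Iglc1-led cells had a median of 162.5 and 131 Iglv1 UMIs beside 0 and 0 of Iglv2. Whether some UMIs of Iglv2 were counted as Iglv1 was not tested. Iglv1 took 212 of 243 assigned cells in F/F (87.2%, 82.4 to 91.2) and 197 of 203 in CD4-Cre (97.0%, 93.7 to 98.9). These shares were 81.2% and 92.4% when the leader needed 50% of Iglv UMIs. The limits of 5 UMIs and 80% left 36 and 22 cells out of the Iglv1 shares, and 32 and 20 of them were led by Iglc2.

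**Figure D2:**
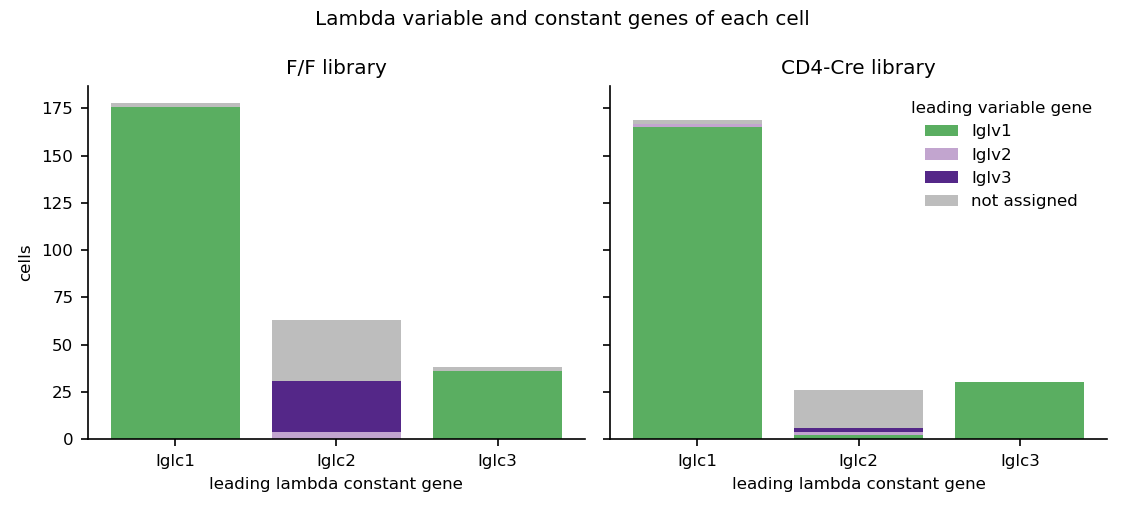
Number of IgA lambda cells (y axis) by leading constant gene (x axis) and assigned variable gene (colour), for each library. Iglv1 fills the Iglc1 and Iglc3 bars, while the Iglc2 bars hold Iglv3, Iglv2 and cells with no assignment, beside 2 Iglv1 cells in CD4-Cre.

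Lambda cells used fewer heavy chain variable genes than kappa cells. Under the same limits an Ighv gene was assigned in 236 of 279 and 188 of 225 lambda cells. The effective number of Ighv genes (the inverse Simpson index, which equals the number of genes if all were equally common) was 15.9 in F/F and 13.8 in CD4-Cre lambda cells, against 37.3 and 38.6 in kappa cells. The 5 most frequent genes held 48.7% and 51.6% of lambda cells and 24.9% and 24.2% of kappa cells. There were far fewer lambda than kappa cells, and cells of 1 clone share their genes, so that cells are not replicates and no test was made.

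The frequent genes differed between the libraries. Ighv6-6 was frequent in both, in 27 of 236 F/F cells (11.4%, 7.68 to 16.2) and 29 of 188 CD4-Cre cells (15.4%, 10.6 to 21.4), beside 3.11% and 3.17% of kappa cells. Ighv7-3 led in F/F with 29 cells (12.3%, 8.39 to 17.2) and was in 9 CD4-Cre cells (4.79%, 2.21 to 8.89). Ighv2-9-1 was in 27 F/F cells (11.4%) and 4 CD4-Cre cells (2.13%), beside 0.591% and 0.885% of kappa cells. Ighv5-17 went the other way, with 1 F/F cell (0.424%) and 21 CD4-Cre cells (11.2%), beside 4.04% and 3.47% of kappa cells. Ighv9-4 was in 5 F/F cells (2.12%) and 21 CD4-Cre cells (11.2%). Ighv5-9-1 was in 16 F/F cells (6.78%) and in 0 of 188 CD4-Cre cells, which allows a share of up to 1.60% by a floor of 3 cells (exact upper limit 1.94%), and Ighv8-8 was in 13 CD4-Cre cells (6.91%) and in 0 of 236 F/F cells, which allows up to 1.27% (1.55%).

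**Figure D3:**
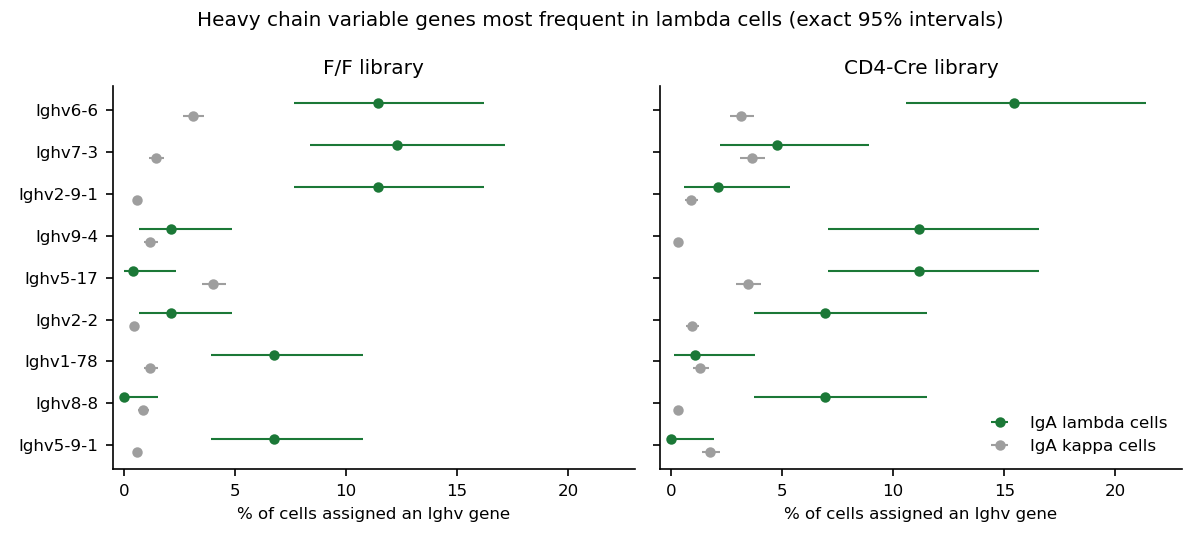
Share of cells assigned an Ighv gene (x axis, %) that used each gene (y axis), for the genes among the 5 most frequent in lambda cells of either library, with exact 95% intervals. Ighv6-6 is above kappa cells in both libraries, while Ighv7-3 and Ighv2-9-1 stand out in F/F and Ighv9-4 and Ighv5-17 in CD4-Cre.

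A few combinations of heavy chain variable gene and lambda constant gene held many cells. With a limit of 15 cells in a library, 5 combinations held 94 of the 279 F/F cells (33.7%) and 3 held 59 of the 225 CD4-Cre cells (26.2%). Ighv2-9-1 with Iglc2 was seen in 26 F/F cells, 22 of them with Iglv3, and in 0 CD4-Cre cells. Ighv5-17 with Iglc3 was seen in 18 CD4-Cre cells, all 18 with Iglv1, and in 0 F/F cells. Ighv5-9-1 with Iglc1 was seen in 16 F/F and 0 CD4-Cre cells, and Ighv9-4 with Iglc1 in 4 and 20. Ighv6-6 with Iglc1 was the combination with over 15 cells in both, 17 and 21. These are combinations of genes, not clones: the joined sequences were not analysed here. Which of the 3 mice in a pool gave the cells is not given in the sources used here.

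The genes outside the antibody loci were compared with IgA kappa cells of the same pools. The edgeR quasi-likelihood test was run on 4 sums, lambda and kappa in each library, with the library as a block. Genes of the immunoglobulin loci and Jchain, 393 in all, were left out. Of these the rule used Jchain and antibody constant genes, but not the variable and joining genes. Of 13390 genes tested, 112 rose in lambda cells (0.836%) and 96 fell (0.717%) at an adjusted p under 0.05, and 185 of these 208 had the same direction in both libraries. Without the block, 0 rose and 1 fell, with 905 genes at an unadjusted p under 0.05. DESeq2 gave 28 and 10. Without the combinations of at least 15 cells, an alternative chosen after seeing the data, 31 rose and 26 fell. The model had 1 residual degree of freedom and pooled the spread over genes, so its p-values do not see a gene's own spread between cells: in 30 of the 112 higher and 23 of the 96 lower genes, 5 cells held over 50% of the UMIs in at least 1 library.

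Among the genes that rose most were members of the Ly6 family, small membrane-anchored surface proteins. Ly6k was at 247 and 238 CPM in lambda cells of F/F and CD4-Cre, against 98.0 and 124 CPM in kappa cells. Both lambda values were above both kappa values, and the log2 difference was 1.17 ± 0.08 (SE), adjusted p = 3.83e-48. Ly6k UMIs lay in 41 and 42 cells. Ly6c2 was at 1350 and 1851 CPM against 771 and 864 (log2 difference 0.98 ± 0.06), and was seen in 228 of 279 and 178 of 225 cells. Ly6e was at 1795 and 2003 CPM against 1468 and 1668 (0.30 ± 0.06). Of the 7 family members listed, 7 were tested, 5 rose and 0 fell, beside 0.836% and 0.717% of all genes tested. Their median log2 difference was 0.30, beside -0.01 over all genes tested. Besides these, Ly6a (0.28) and Ly6i (0.77) rose, while Ly6d, at 0.20, had an adjusted p of 0.056. Ly6k differed among the members: 180 and 95.9 CPM in Iglc1-led, 210 and 206 in Iglc2-led and 585 and 1059 in Iglc3-led cells. In the 18 CD4-Cre cells with Ighv5-17 and Iglc3, Ly6k reached 1544 CPM. In Iglc1-led cells alone against kappa cells, the log2 difference of Ly6k was 0.32 and its adjusted p 0.61. Without the combinations of at least 15 cells Ly6k was at a log2 difference of 0.94 and Ly6i at 0.31, and neither passed. For the family as a whole DESeq2 called 3 members (Ly6k, Ly6c2 and Ly6e), edgeR without the block 0, with 5 at an unadjusted p under 0.05, and edgeR without those combinations 3 (Ly6c2, Ly6a and Ly6e). Ly6i was at -0.92 when Iglc2- and Iglc3-led cells alone were set against kappa cells.

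Mt1, Mt2, H2-Q7, H2-Q6 and Cd74 were among the other genes that rose. Mt1, a metallothionein that binds zinc and copper, was at 239 and 230 CPM against 121 and 96.0 (log2 difference 1.14 ± 0.08), and Mt2, its neighbour, at 47.0 and 58.0 CPM against 25.8 and 25.3 (1.05 ± 0.14). In CD4-Cre cells 5 cells held 52.3% of Mt1 and 62.6% of Mt2 UMIs. Oosp1, a gene named for a secreted oocyte protein, was at 91.3 and 98.4 CPM against 48.4 and 46.8 (1.01 ± 0.11), spread over 108 and 92 cells. H2-Q7, a non-classical class I gene of the major histocompatibility complex, was at 178 and 331 CPM against 123 and 164 CPM in kappa cells (0.81 ± 0.08), and H2-Q6, with which it can share reads, at 57.7 and 49.2 CPM against 30.0 and 33.1 (0.80 ± 0.13). Cd74, the invariant chain of class II, was at 5828 and 5551 CPM against 4459 and 4950 (0.30 ± 0.06). The class II genes H2-Aa, H2-Ab1 and H2-Eb1 had log2 differences of -0.09, 0.05 and 0.02 and did not pass the test. Gpx3, a secreted glutathione peroxidase, was at 25.6 and 25.8 CPM against 15.3 and 11.9 (0.93 ± 0.19). Ackr3, an atypical receptor that takes up the chemokine CXCL12, was at 42.8 and 25.2 CPM against 21.8 and 17.1 (0.83 ± 0.16).

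Some of the largest differences came from a handful of cells. Fmnl2, which regulates actin filaments, was at 13.97 and 41.6 CPM against 8.23 and 8.46 (log2 difference 1.67), with UMIs in 4 F/F and 8 CD4-Cre cells. Cadm1, a cell adhesion molecule, was at 11.6 and 34.0 CPM against 7.46 and 9.22 (1.39), with UMIs in 2 and 7 cells. Slc9a9, an endosomal sodium-proton exchanger, was at 19.6 and 59.2 CPM against 19.3 and 17.9 (1.02), with 76.2% and 77.2% of its UMIs in 5 cells. Without the combinations of at least 15 cells, these 3 genes did not pass the test, nor did Ackr3, at 0.51.

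The genes that fell most included neighbours of the light chain loci. Gm30211, a long non-coding RNA whose gene (chromosome 6, 70719074-70740554, plus strand) spans Igkc (70726435-70726966, plus strand), was at 494 and 354 CPM in lambda cells against 2513 and 3186 in kappa cells (log2 difference -2.71 ± 0.07). Since it overlaps Igkc on the same strand, its reads and those of Igkc cannot be fully told apart, and this difference is not independent of the rule. Rpia, an enzyme of the pentose phosphate pathway, lies next to it (70765720-70792232) and was at 18.2 and 14.6 CPM against 41.8 and 42.2 (-1.32 ± 0.17). Gm43388, a non-coding RNA between Iglc2 and Iglv3 on chromosome 16 (19212660-19236776), was at 32.1 and 31.6 CPM against 64.1 and 68.0 (-1.02 ± 0.14).

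Other genes fell outside these loci. Apoe, a lipoprotein that macrophages make in quantity, was at 73.6 and 71.5 CPM against 166 and 133 (log2 difference -1.03 ± 0.10), with 58.9% and 62.3% of its UMIs in 5 cells. On 10 genes of macrophages and dendritic cells, the summed level was 268 and 179 CPM in lambda and 357 and 289 CPM in kappa cells. Without Apoe the other 9 genes summed to 194 and 108 CPM in lambda and 191 and 156 CPM in kappa cells, and their part in the fall of Apoe was not tested. Of these 10 genes Apoe fell and Clec9a, a receptor of dendritic cells, rose (1.28), with UMIs in 5 and 6 cells. Over all genes tested, 1.55% passed in either direction. Nbea, which works in vesicle transport, was at 51.7 and 12.3 CPM against 75.6 and 70.2 (-1.12 ± 0.13). Il1rapl2, a receptor of the interleukin 1 family, was at 40.04 and 27.5 CPM against 78.1 and 61.1 (-1.01), but its UMIs lay in 10 and 5 cells. Satb1, a chromatin organiser, was at 11.6 and 12.3 CPM against 26.6 and 21.3 (-0.99). Prf1, which encodes perforin, was at 12.1 and 13.5 CPM against 22.4 and 25.7 (-0.88). 2310067P03Rik, Hist1h2ak, Zfp445 and Nln, the rest of the lower genes named by rule, had log2 differences from -1.02 to -0.73. Further Hist1h histone genes were called lower, among them Hist1h1b (-0.48), Hist1h1c, Hist1h1d and Hist1h4c. Without the combinations of at least 15 cells Satb1, Prf1, Hist1h2ak, Zfp445 and Nln did not pass, with Prf1 at -1.003 and Zfp445 at -0.58.

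Of 22 plasma cell identity genes tested, 2 rose and 1 fell, beside 1.55% of all genes tested in either direction, and the median log2 difference was 0.01. Xbp1, the transcription factor of the secretory machinery, was at 2331 and 2186 CPM in lambda against 2523 and 2210 in kappa cells (log2 difference -0.04 ± 0.06, adjusted p = 0.94). The rule asked for at least 1 Xbp1 UMI in cells of both classes, so this comparison is not independent of the rule. Prdm1, which sets the plasma cell state, was at 162 and 100.2 CPM against 142 and 98.3 (0.15, adjusted p = 0.66), and Irf4, its partner, at 235 and 158 CPM against 229 and 173 (-0.01, adjusted p = 0.99). Sdc1, the surface marker CD138, had 453 and 417 CPM against 474 and 455 (-0.07, adjusted p = 0.87). Tnfrsf17, the survival receptor BCMA, had 497 and 564 CPM against 557 and 602 (-0.10, adjusted p = 0.70). Of these identity genes, Mzb1, an ER protein that helps IgA secretion, rose, with 7527 and 8712 CPM against 6361 and 7115 (0.29 ± 0.06, adjusted p = 0.00023), and Derl3, which helps export misfolded proteins from the ER, rose with 1157 and 1039 CPM against 900 and 975 (0.25 ± 0.06). Cd93, linked to plasma cell upkeep, fell, with 53.1 and 55.1 CPM against 87.4 and 88.4 (-0.68 ± 0.11). Derl3 did not pass in DESeq2, nor without the combinations of at least 15 cells. Against kappa cells, Iglc1-led cells alone had log2 differences of 0.05 for Mzb1 and 0.03 for Derl3. Iglc2- or Iglc3-led cells alone had 0.69 and 0.56. Neither gene passed in either of these 2 fits. Of 19 survival and cytokine receptor genes 0 passed in edgeR or DESeq2, with 2 at an unadjusted edgeR p under 0.05, and of 19 glycan genes 0 passed in either, with 1.

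Homing receptors differed in part. Ccr10, the receptor that draws IgA cells to mucosal epithelium, fell, from 835 and 807 CPM in kappa to 573 and 697 CPM in lambda cells (log2 difference -0.35 ± 0.07). Ccr9, the small intestinal homing receptor, was at 80.5 and 68.0 CPM against 98.4 and 82.8 (-0.26, adjusted p = 0.27). Itgae, the alpha E integrin, rose at low level, with 13.97 and 22.3 CPM against 7.05 and 8.69, and with 63.3% and 81.6% of its UMIs in 5 cells. It did not pass without the combinations of at least 15 cells. The other 15 of 17 homing genes tested, Ccr9 among them, did not pass. Over all genes tested, 1.55% passed in either direction.

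Among the lists, genes that fold proteins in the ER held the most called members by number, while the Ly6 family had the larger called share (5 of 7). Of 30 ER folding genes tested, 12 rose and 0 fell, beside 0.836% and 0.717% of all genes tested. All 30 had a log2 difference above 0, and their median was 0.21, beside -0.01 over all genes tested. Hspa5, the chaperone BiP that binds unassembled antibody chains, was at 3904 and 4246 CPM in lambda against 2917 and 3192 CPM in kappa cells. Both lambda libraries lay above both kappa libraries, with a log2 difference of 0.44 ± 0.06 and an adjusted p of 2.82e-10. Hsp90b1, the chaperone GRP94, was at 8858 and 10307 CPM against 6660 and 8333 (0.38 ± 0.06). Herpud1, a membrane protein of ER-associated degradation, was at 1499 and 1398 CPM against 1005 and 1067 (0.51 ± 0.06). Creld2, induced by ER stress, was at 1150 and 1199 CPM against 804 and 909 (0.48 ± 0.06). Sel1l, the adaptor of the degradation ligase, was at 700.2 and 622 CPM against 495 and 517 (0.41 ± 0.07). Sdf2l1 (0.34), Manf (0.29), Pdia4 (0.25), Calr (0.24), Dnajc3 (0.23) and Pdia6 (0.22) also rose, as did Trib3, with 10 and 7 UMIs. Apart from Trib3, the 5 cells richest in each called gene held 6.49% to 12.3% of its UMIs. Without the block 0 of the 30 passed, with 8 at an unadjusted p under 0.05 and a median of 0.20. DESeq2 called 9, and edgeR called 9 without the combinations of at least 15 cells. Of 29 genes of ER entry and secretory transport, 0 passed in edgeR or DESeq2, with 5 at an unadjusted edgeR p under 0.05, 23 above 0 and a median of 0.05.

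Within lambda cells the level of these folding genes differed by constant gene, a split made after seeing the data. Summed over the list, Iglc1-led cells had 36876 CPM in F/F and 41856 in CD4-Cre, near the 35500 and 39990 CPM of kappa cells. Iglc2-led cells had 51498 and 64822 CPM and Iglc3-led cells 48533 and 52866. Over single cells the lower and upper quartiles ran from 25113 to 45766 CPM in Iglc1-led and from 41334 to 63580 in Iglc2-led cells in F/F. Hspa5 was at 3002 and 3498 CPM in Iglc1-led, 5416 and 7914 in Iglc2-led and 5062 and 4873 in Iglc3-led cells. Sdf2l1 was at 1161 and 1119 CPM, 2147 and 2659, and 1775 and 1585 in the same order. Herpud1 was at 1299 and 1320 CPM, 1721 and 1791, and 1949 and 1452. In each of these genes and in each library the Iglc2- and Iglc3-led cells lay above the Iglc1-led cells.

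Fitted against kappa cells, Iglc1-led cells had 1 of the 30 genes higher (Herpud1, log2 difference 0.33, adjusted p = 0.00054) and a median of 0.06, with Calr and Sdf2l1 both at -0.02. Iglc2- or Iglc3-led cells had 5 higher and a median of 0.36. Over all genes tested, the Iglc1 fit called 0.320% higher and the Iglc2 or Iglc3 fit 0.198%. These 2 fits share the kappa sums, so the difference was fitted directly between the 2 kinds of lambda cell. Of 7170 genes tested there, 3 rose (0.0418%) and 4 fell (0.0558%) in Iglc2- or Iglc3-led cells. Of the 29 ER folding genes tested, Sdf2l1 passed (log2 difference 0.91 ± 0.21, adjusted p = 0.016), 26 were above 0 and the median was 0.44, beside 0.00 over all genes. Hspa5 had 0.90 ± 0.24 and an adjusted p of 0.093, Creld2 0.72 ± 0.20 and 0.12, and Hsp90b1 0.76 ± 0.28 and 0.45, so that these did not pass. Besides Sdf2l1, Ly6k (1.85 ± 0.19) and Psmd1, a proteasome subunit (0.97 ± 0.24), were higher. Lyz2 (-2.42 ± 0.33), Ly6i (-2.16 ± 0.45), Hist1h1b (-1.64 ± 0.36) and Apoe (-1.27 ± 0.26) were lower. Without the block 0 genes passed, with 339 at an unadjusted p under 0.05. DESeq2 called 3 higher and 0 lower, and of these Sdf2l1 was shared. The other two were Hspa5 (0.91, adjusted p = 0.00024) and Hsp90b1 (0.77, adjusted p = 0.0016). Without the combinations of at least 15 cells edgeR called 9 higher and 15 lower, of which 2 (Ly6k and Sdf2l1) and 1 (Hist1h1b) were shared with the genes above. Hspa5 (0.88, adjusted p = 0.0019) and Creld2 (0.68, adjusted p = 0.010) passed there. Lyz2 (-0.61), Apoe (-0.47), Ly6i (-1.54) and Psmd1 (0.88) did not. The combinations differed in level: the 26 F/F cells with Ighv2-9-1 and Iglc2 had 6247 CPM of Hspa5, and the 18 CD4-Cre cells with Ighv5-17 and Iglc3 had 4868.

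**Figure D4:**
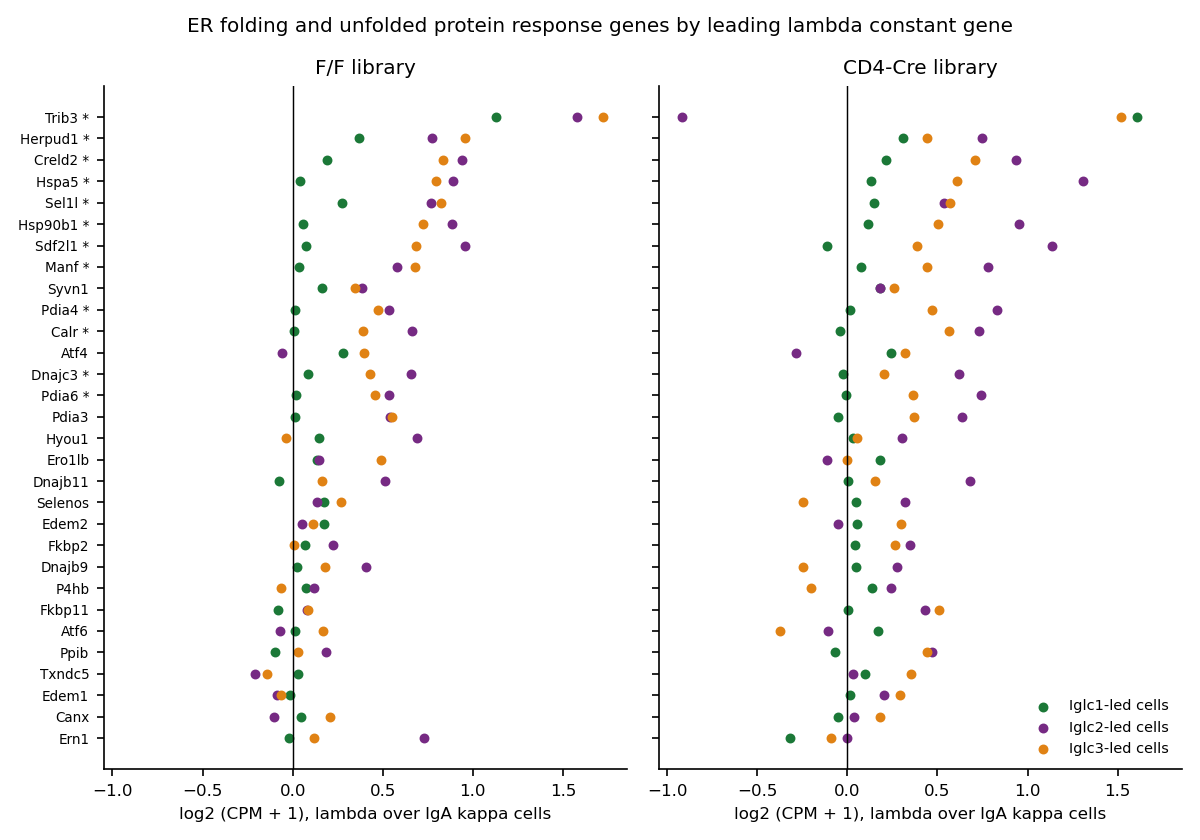
Log2 of (CPM + 1) in lambda over IgA kappa cells of the same library (x axis) for each ER folding gene (y axis), by leading constant gene (colour), with an asterisk for genes called higher in all lambda cells. Iglc1-led cells stand near 0 for most genes, and Iglc2- and Iglc3-led cells stand to the right of them for Hspa5, Hsp90b1, Sdf2l1 and Manf in both libraries.

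The promoters of Hspa5 and Herpud1 are shown because both genes rose and both carry a known ER stress element, the site through which ATF6 and XBP1 act. RefSeq promoters (GRCm38.p6) were searched over the 250 bases before each start, on both strands, for the ER stress element, CCAAT then 9 bases of any kind then CCACG, and for its second form, ATTGG then 1 base then CCACG. The 150 bases before the start of each gene are printed 5′ to 3′ with the match in capitals, Hspa5 from chr2:34771940-34772089 and Herpud1 from chr8:94386279-94386428, both on the plus strand.
Hspa5: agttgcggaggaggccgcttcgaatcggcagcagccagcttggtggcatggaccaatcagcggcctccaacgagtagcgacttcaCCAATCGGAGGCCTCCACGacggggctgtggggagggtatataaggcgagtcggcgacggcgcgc
Herpud1: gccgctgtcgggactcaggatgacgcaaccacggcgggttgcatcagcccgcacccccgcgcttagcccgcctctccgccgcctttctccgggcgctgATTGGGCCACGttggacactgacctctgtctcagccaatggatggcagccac
The match lies from base -65 to -47 in Hspa5 and from -52 to -42 in Herpud1, counted from the RefSeq start. In GENCODE M21 the Hspa5 gene begins further upstream, at 34771970, inside the printed window. Of 27025 genes with a promoter in the table, 35 held the first form (0.130%) and 10 the second (0.0370%). Of the 27 ER folding genes with a promoter there, 8 and 1 did, and of the 11 called genes with one, 6 and 1 did: Calr, Creld2, Dnajc3, Hsp90b1, Hspa5 and Pdia6, and Herpud1. The list was chosen for this pathway, so the share describes it and tests nothing.

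A few genes of amino acid supply and of other lists also rose. Asns, which makes asparagine, was at 138 and 134 CPM against 90.7 and 91.7 (log2 difference 0.60 ± 0.09). Slc3a2, a subunit of amino acid transporters, was at 1054 and 737 CPM against 646 and 674 (0.45 ± 0.06). Phgdh, the first enzyme of serine synthesis, was at 421 and 383 CPM against 341 and 352 (0.24 ± 0.07). These were the 3 of 22 genes of glycolysis and amino acid uptake that rose, with 0 lower and a list median of -0.04. Over all genes tested, 0.836% rose and 0.717% fell. Npc2, which moves cholesterol out of lysosomes, was the 1 of 33 genes of cholesterol synthesis and sterol transport to rise (446 and 518 CPM against 404 and 424), and 0 fell. Ifi27l2a, an interferon-induced gene, was the 1 of 17 interferon genes to rise, at 415 and 229 CPM against 289 and 172. In DESeq2 Slc3a2, Phgdh and Npc2 did not pass, and without the combinations of at least 15 cells Phgdh and Npc2 did not. Of 24 nuclear genes of oxidative phosphorylation, 13 mitochondrial genes and 26 immediate early genes, 0 passed in edgeR or DESeq2, with 1, 4 and 4 at an unadjusted edgeR p under 0.05.

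Between the genotypes the lambda cells were compared by CPM ratio, with exact intervals from counting error and no test. Of 4148 genes with at least 100 UMIs over both libraries, 88 were over 1.5-fold higher in CD4-Cre (2.12%) and 97 over 1.5-fold lower (2.34%), 4.46% in either direction, and the median log2 ratio was 0.02. The acinar genes led the lower side, and they also differed in free RNA. Ctrb1, a pancreatic protease, had 376 UMIs in F/F lambda cells and 0 in CD4-Cre. Prss2 had 288 and 0, Try4 287 and 0, and Pnlip 192 and 0. Tff2, a gastric peptide, was 7.95-fold higher (5.70 to 11.3) in lambda and 7.46-fold higher in kappa cells, with 127 and 752 CPM in the free RNA of F/F and CD4-Cre. Cela1, another acinar gene, was at 75.9 and 1.17 CPM in lambda cells, and its level in free RNA was 229 and 64.7 CPM.

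Where free RNA differed by less than 4-fold, some named genes had like ratios in kappa cells and others did not. Mbnl1, a splicing regulator, was at 387 and 697 CPM in F/F and CD4-Cre lambda cells, a ratio of 1.80 (1.65 to 1.97), and its ratio in kappa cells was 1.79. Ifi27l2a had a ratio of 0.552 (0.489 to 0.622) in lambda and 0.596 in kappa cells, and Hist1h4n, a histone gene, 0.539 (0.425 to 0.681) and 0.628. For Slpi, Cdk14 and Raph1 the kappa ratio lay between 0.941 and 1.06. Slpi, a secreted protease inhibitor of mucosal surfaces, was at 2170 and 1199 CPM in F/F and CD4-Cre lambda cells, a ratio of 0.552 (0.524 to 0.582), beside 2205 and 2327 CPM in kappa cells (1.06). Cdk14, a cyclin-dependent kinase, was at 76.4 and 152 CPM (ratio 2.00, 1.63 to 2.44) beside 0.941 in kappa cells. Raph1, an actin regulator, was at 46.6 and 105 CPM (2.27, 1.76 to 2.92) beside 0.961. Gng10, a G protein subunit, was at 25.1 and 58.0 CPM (2.31, 1.64 to 3.28). Gng10 was also higher in CD4-Cre kappa cells, with 43.7 and 54.5 CPM (1.245, 1.17 to 1.32). Gm11290, a non-coding RNA, was at 12.1 and 47.5 CPM (3.92, 2.49 to 6.36), and at 27.0 and 33.8 CPM in kappa cells, with an interval of the ratio from 1.16 to 1.35. Hist1h4n had a ratio of 0.828 without the combinations of at least 15 cells.

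Several of these differences lay in few cells or in single combinations. Slpi was at 6681 CPM in the 26 F/F cells with Ighv2-9-1 and Iglc2 and at 33.9 CPM in the 18 CD4-Cre cells with Ighv5-17 and Iglc3. In CD4-Cre, 5 cells held 48.0% of Slpi UMIs. Without the combinations of at least 15 cells its ratio was 0.786, and without the 5 cells richest in Slpi in each library it was 0.348. Lyz2, the lysozyme of macrophages, had 81.5 and 27.0 CPM (ratio 0.331) beside 0.957 in kappa cells, and 5 F/F cells held 89.1% of its UMIs. Lyz2 was at 1215 CPM in the 16 F/F cells with Ighv1-78 and Iglc1, and its ratio turned to 1.99 without the combinations. Nbea had 51.7 and 12.3 CPM (0.238, 0.142 to 0.382) and was at 222 CPM in the 26 cells with Ighv2-9-1 and Iglc2. The ratio of Nbea was 0.359 without the combinations and 0.0987 without the 5 richest cells of each library. Slc8a1, a sodium-calcium exchanger, had 13 UMIs in 4 F/F cells and 91 UMIs in 9 CD4-Cre cells, a ratio of 8.81 (4.90 to 17.2). Of the CD4-Cre UMIs, 95.6% lay in 5 cells. Without the combinations even fewer F/F UMIs of Slc8a1 remained, so no ratio is given. Slc9a9 (ratio 3.03) and Fmnl2 (2.98) also lay mostly in 5 cells a library, with 42 and 30 UMIs in F/F. Fewer of these F/F UMIs remained without the combinations, so no ratio is given there. Egr1, an immediate early gene, had 38.6 and 16.4 CPM (0.425, 0.266 to 0.659), and Zfand5, a ubiquitin-binding protein, 169 and 94.3 CPM (0.558, 0.461 to 0.674). Egr1 and Zfand5 kept ratios from 0.38 to 0.59 under the alternatives run.

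**Figure D5:**
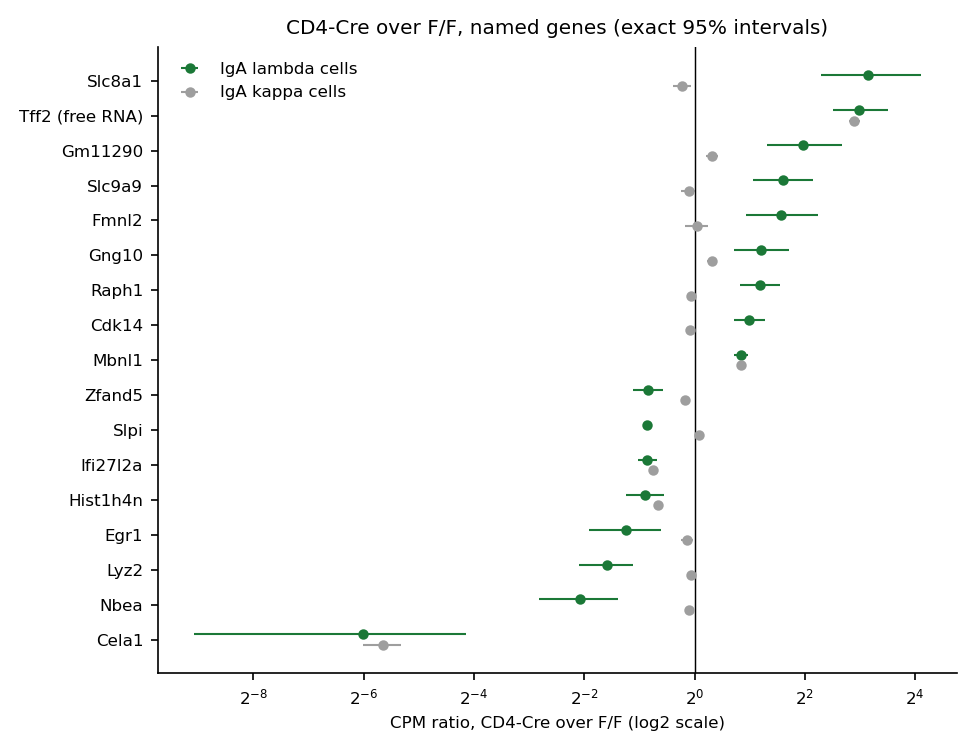
CPM ratio of CD4-Cre over F/F (x axis, log2 scale) with exact 95% intervals in IgA lambda and IgA kappa cells, for the named genes (y axis) with UMIs in both libraries. Tff2, Mbnl1, Ifi27l2a, Hist1h4n and Cela1 have like ratios in both classes, while Slc8a1, Slpi, Lyz2 and Nbea differ from the kappa ratio.

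Most lists had few genes past 1.5-fold between the genotypes, and some did not. All 8 acinar genes measured were past 1.5-fold lower in CD4-Cre, as were 2 of 3 genes of macrophages and dendritic cells. Of 17 immediate early genes 1 was past it, lower, and 4 had a ratio above 1. Of 29 ER folding genes measured, 0 were past 1.5-fold in either direction, and their median log2 ratio was 0.11 in lambda and 0.13 in kappa cells. Of 24 genes of oxidative phosphorylation 0 were past 1.5-fold, with medians of -0.18 and -0.27. Of 20 identity genes measured, 1 was past 1.5-fold higher and 1 lower, beside 4.46% of all genes in either direction. The lower one was Prdm1, at 162 and 100.2 CPM in F/F and CD4-Cre (ratio 0.618, 0.512 to 0.745), beside 0.692 in kappa cells. The higher one, chosen here after its value was seen, was Cd9, a tetraspanin, at 26.5 and 56.8 CPM.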

How the data were processed

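Small intestinal lamina propria cells were measured by single-cell RNA sequencing in 1 library per genotype. The deposited files hold raw UMI counts per gene and barcode, unfiltered, made by the authors with Cell Ranger 7.2.0 against mm10, per the submitters' processing notes. Seurat 5.0.1 is named there too and was not used here. The depth of each library is given with the results.

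Members and gene lists were chosen with earlier results of these data known. Counts were summed over lambda and over kappa cells of each library, and the 4 sums were tested with edgeR 4.0.16 (R 4.3.3; quasi-likelihood, TMM, low counts filtered by filterByExpr) with the library as a block, and p-values were adjusted over all genes tested by Benjamini-Hochberg at 0.05. Each library's lambda and kappa cells come from the same pool of mice, so the sums are paired. Across 4148 genes the log2 F/F over CD4-Cre ratios of lambda and kappa cells had r = 0.793, or 0.508 without genes of unequal free RNA. SE and p-values rest on a spread among these sums that was pooled over genes, so they do not measure a gene's own spread. Named genes were up to 12 per direction for lambda over kappa (adjusted p under 0.05, same direction in both libraries, at least 20 CPM, by size) and up to 8 per direction for CD4-Cre over F/F (at least 100 UMIs, by the interval bound nearest no change), the latter also after dropping genes with over 4-fold unequal free RNA, then members of lists with the highest level or largest change, and a fixed set of antibody and plasma cell genes. Python 3.11.15, scipy 1.17.1 and DESeq2 1.42.0 were also used. No doublet caller was run. The fit was tested on simulated data: for lambda over kappa (13124 genes) recovery was 8% at the smallest simulated fold, 46% at 1.5 and 96% at 2, and it called 0.031% of unchanged genes. For the direct comparison of lambda cells (6911 genes) it was 10% at 1.5 and 42% at 2. The simulated counts were drawn as sums with the same dispersion (0.01) for every gene. Cells and shared combinations were not simulated, so these rates need not hold for genes that lie in a few cells. Positions are from GENCODE M21 (GRCm38). The alternatives tried were other filters on cells, other normalization and tests, and leaving out cells or libraries.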

Additional observations from a re-analysis of the deposited data

Results flagged for a closer look

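The lambda over kappa ratio of CPM lay on opposite sides of 1 in the 2 libraries in several named genes. For Lyz2, Egr1, Cdk14, Gng10 and Irf4, among others, the exact interval from counting error held 1 in at least 1 library. In 4 named genes, given below, the interval lay clear of 1 in both libraries. With 1 pool per genotype the difference was not tested. For Slc8a1 the ratio was 0.391 in F/F and 4.06 in CD4-Cre, where 5 cells held 95.6% of its UMIs. For Gm11290 it was 0.448 and 1.41. For Raph1 it was 0.561 and 1.32. For Zfand5 it went the other way, 1.21 in F/F and 0.763 in CD4-Cre.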

How the results depend on the processing

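The lambda share of IgA plasma cells in F/F was 3.42% when 1 light chain had to be 4 times the other, and stayed within its interval under the other cell filters run. The Iglv1 share was 81.2% and 92.4% with a limit of 50% of Iglv UMIs. Of the 112 genes higher and 96 lower in lambda than kappa cells, the fit without the block, which ignores the pairing of sums by library, called 0 and 1. DESeq2 called 28 and 10, keeping immunoglobulin genes 64 and 46, and leaving out the combinations of at least 15 cells 31 and 26. Iglc1-led cells alone gave 43 and 44, and Iglc2- or Iglc3-led cells alone 26 and 30. These last 3 fits use fewer lambda cells; the cause of the other differences was not tested. The direct comparison of lambda cells, 3 higher and 4 lower, gave 0 and 0 without the block, 0 lower in DESeq2, 7 lower with lambda at least 4 times kappa, and 9 higher and 15 lower without the combinations. For CD4-Cre over F/F 97 of 4148 genes were past 1.5-fold lower. Without the combinations 53 of 3252 were, 29 of them among the 97, and without the 5 cells richest in each gene 176 of 4148 were, 95 of them among the 97. Calr turned to -0.020 and Sdf2l1 to -0.024 in Iglc1-led cells alone, Ly6i to -0.92 in Iglc2- or Iglc3-led cells alone, and the Lyz2 ratio to 1.99 without the combinations. With 1 library left out there is no test: 36 named results kept their value within the limit and 21 moved without CD4-Cre, and 35 and 22 without F/F. The comparison of genotypes has 1 pool a side, so its intervals cover counting error alone.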
